A study of Saccharomyces cerevisiae with 9 samples.

Results

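Loss of the poly(A)-binding protein Pab1 was examined by ribosome profiling (Ribo-Seq) in Saccharomyces cerevisiae, by comparing 3 libraries of cells lacking both PAB1 and PBP1 (pab1Δpbp1Δ) with 3 libraries of cells lacking PBP1 alone (pbp1Δ). These were 6 of the 9 libraries of the series, chosen by their labels, and the other 3 were wild type and were not used in the comparison. All strains were haploid MATa W303, grown in rich glucose medium. Both groups carried a URA3 gene in place of PBP1, and pab1Δpbp1Δ cells carried in addition a kanamycin resistance gene in place of PAB1. The pbp1Δ libraries came from separate isolates, whereas all pab1Δpbp1Δ isolates descended from a single pbp1Δ isolate, so the spread among them is that of a single lineage. The study's methods also state that the double mutant divided more slowly, and growth rate and loss of Pab1 cannot be told apart in this comparison. A footprint count reflects both the amount of an mRNA and its ribosome occupancy, which it does not separate.

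Pab1 coats the poly(A) tails of cytoplasmic mRNAs. It binds the cap-binding complex through eIF4G and the termination machinery through eRF3, and it recruits or restrains the enzymes that shorten the tail. Yeast cells need PAB1 to live, and loss of Pbp1, the yeast ataxin-2 protein, is among the mutations that let cells live without it. A yeast cell that grows fast on glucose ferments it to ethanol, makes ribosomes at a high rate and keeps respiratory, gluconeogenic and stress genes low.

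The table held 6952 isoform entries, of which 6587 were spliced or intronless mRNAs, 343 were unspliced mRNAs and 22 were of other kinds. Total expected counts ran from 3149040 in pab1Δpbp1Δ replicate 3 to 6903587 in pab1Δpbp1Δ replicate 2, and log2 counts correlated at 0.971 to 0.983 among pbp1Δ libraries, 0.956 to 0.964 among pab1Δpbp1Δ libraries and 0.901 to 0.928 between the groups. The deleted gene checked the labels: normalized counts of PAB1 were 5774, 5750 and 4776 in pbp1Δ and 0, 3.05 and 0 in pab1Δpbp1Δ. PBP1 had 0, 3.47 and 0 in pbp1Δ and 0, 0 and 0 in pab1Δpbp1Δ, and its replacement URA3 had 328, 329 and 355 in pbp1Δ and 365, 361 and 363 in pab1Δpbp1Δ. Values below are normalized counts, that is, expected counts divided by a size factor for each library, given in the order of the replicate numbers, and a log2 fold change is that of pab1Δpbp1Δ relative to pbp1Δ with its standard error. A difference was called at a DESeq2 adjusted p below 0.01.

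Of 5772 entries tested, 1230 (21.3%) were called, 639 (11.1%) higher and 591 (10.2%) lower in pab1Δpbp1Δ. The count fell to 756 without pbp1Δ replicate 2 and to 786 without pbp1Δ replicate 3. The higher entries changed by more than the lower. The median size of the change was 1.27 on the log2 scale among entries called higher and 0.85 among those called lower, and 152 entries called higher but 25 called lower changed by at least 2 on that scale. Scaling by total counts moved the median of all tested entries by 0.12 on the log2 scale and turned the split into 794 higher and 433 lower, that is, 64.7% of calls higher in place of 52.0%.

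Called entries were next described over 59 lists of genes with a shared function. By DESeq2 size factors, members of 18 lists were more often called higher than lower, 28 lists showed the reverse, 8 had equal numbers and 5 had no called member. With scaling by total counts the balance turned, with 25 lists more often higher and 23 more often lower. Genes of the stress response, of the glyoxylate cycle and of antioxidant defence were more often called higher, and genes of ribosome assembly, tRNA modification and methionine synthesis more often lower. In the counts that follow, the shares called over all tested entries stand as the background.

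**Figure D1:**
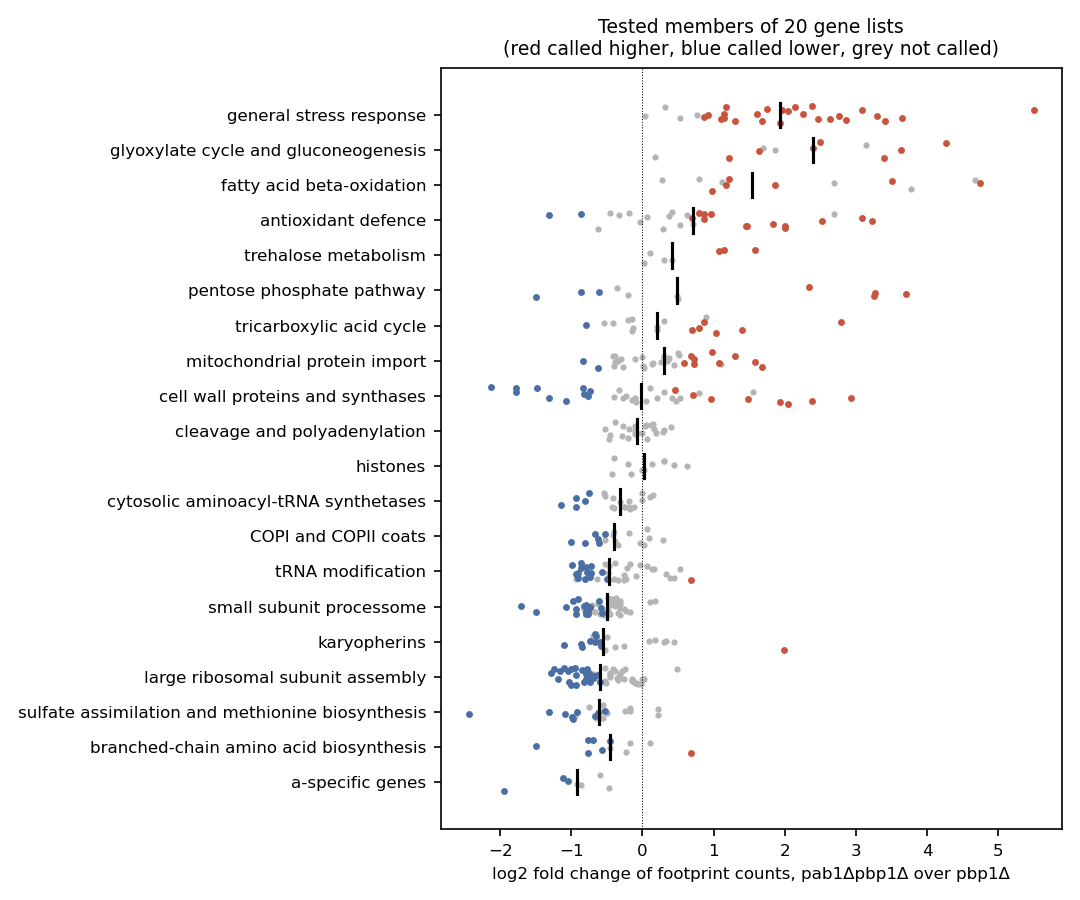
Log2 fold change of footprint counts (x axis, pab1Δpbp1Δ over pbp1Δ) of every tested member of 20 of the 59 lists (y axis); each point is a gene, red where called higher, blue where called lower and grey where not called, and the black bar is the list's median. The general stress response sits at a median of 1.93 and large ribosomal subunit assembly at -0.60.

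Most stress genes were higher in pab1Δpbp1Δ. Of 29 tested genes of the general stress response, which yeast induces under many unrelated stresses and in slow growth, 25 were called higher and 0 lower, with a median log2 fold change of 1.93 against 0.03 over all tested entries. CTT1, the cytosolic catalase, had 19.3, 28.6 and 20.9 in pbp1Δ and 166, 204 and 213 in pab1Δpbp1Δ (log2 fold change 3.08 ± 0.31, adjusted p = 9.26e-21). RTN2, a reticulon of the endoplasmic reticulum, had 30.3, 19.1 and 34.8 in pbp1Δ and 184, 294 and 343 in pab1Δpbp1Δ (log2 fold change 3.29 ± 0.34), and YGP1, a secreted glycoprotein of starved cells, had 220, 143 and 101 in pbp1Δ and 794, 454 and 674 in pab1Δpbp1Δ (2.05 ± 0.31). No library of one group overlapped the other for these genes. The polyubiquitin gene UBI4, which belonged to none of the lists, had 2459, 2719 and 2170 in pbp1Δ and 7684, 8736 and 6196 in pab1Δpbp1Δ (log2 fold change 1.62 ± 0.18, adjusted p = 6.03e-18). The smallest called change in the list was that of HSP104, a disaggregase, with 1303, 1600 and 1281 in pbp1Δ and 2447, 3498 and 1651 in pab1Δpbp1Δ, not called by edgeR or on leaving out replicate 1, 2 or 3 of pbp1Δ or replicate 1 or 2 of pab1Δpbp1Δ. HSP78, the mitochondrial counterpart of Hsp104, was picked after its values were seen as the member closest to 0, with 393, 323 and 309 in pbp1Δ and 353, 348 and 341 in pab1Δpbp1Δ (log2 fold change 0.03 ± 0.19, adjusted p = 0.938). Together the list took 0.133, 0.143 and 0.133% of footprints in pbp1Δ and 0.358, 0.423 and 0.348% in pab1Δpbp1Δ, a share 2.76 times as large (two-sided exact permutation p = 0.10, the smallest that 3 against 3 libraries allow, and 0.197 after adjustment over the 59 lists).

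Genes of reserve carbohydrates were called in both directions. Trehalose, a disaccharide that protects proteins, had 3 of 7 tested genes called higher and 0 lower. They were TSL1, a regulatory subunit of the synthase with 498, 475 and 538 in pbp1Δ and 1401, 1959 and 1150 in pab1Δpbp1Δ (log2 fold change 1.58 ± 0.22), and the trehalases NTH1 (1.07 ± 0.20) and ATH1 (1.14 ± 0.26). In glycogen metabolism, GDB1, the debranching enzyme, had 107, 183 and 158 in pbp1Δ and 587, 835 and 417 in pab1Δpbp1Δ (2.04 ± 0.29, adjusted p = 1.48e-10), and GPH1, the phosphorylase, was higher by 1.47 ± 0.34, not called by edgeR. UGP1, which makes the UDP-glucose that both pathways use, had 2075, 2932 and 2609 in pbp1Δ and 1181, 1337 and 1071 in pab1Δpbp1Δ (-1.08 ± 0.18, adjusted p = 5.98e-08), and GSY1, a glycogen synthase, had 127, 176 and 175 in pbp1Δ and 60.7, 59.5 and 77.3 in pab1Δpbp1Δ (-1.29 ± 0.28). GSY2, the paralogous synthase, was not called, with 118, 155 and 166 in pbp1Δ and 145, 265 and 227 in pab1Δpbp1Δ.

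Several enzymes of acetate use were higher in pab1Δpbp1Δ, most of them from low levels. In the list of the glyoxylate cycle and gluconeogenesis, through which yeast builds sugar from acetyl units, 7 of 11 tested genes were called higher and 0 lower, and the median log2 fold change was 2.40. CIT2, the peroxisomal citrate synthase, had 108, 78.1 and 82.6 in pbp1Δ and 301, 1787 and 1246 in pab1Δpbp1Δ (3.63 ± 0.70, adjusted p = 3.21e-06), so pab1Δpbp1Δ replicate 1 lay between the other isolates and pbp1Δ. MDH2, the cytosolic malate dehydrogenase, had 49.5, 59.9 and 57.7 in pbp1Δ and 126, 207 and 187 in pab1Δpbp1Δ (1.64 ± 0.30), and ACS1, an acetyl-CoA synthetase repressed by glucose, had 5.50, 6.94 and 6.97 in pbp1Δ and 16.4, 46.5 and 47.1 in pab1Δpbp1Δ (2.49 ± 0.65), not called on leaving out replicate 2 or 3 of pab1Δpbp1Δ. PCK1 and ICL1, picked after their values were seen because they are the committed enzymes of gluconeogenesis and the glyoxylate cycle, were both scarce. PCK1 had 3.67, 7.81 and 5.97 in pbp1Δ and 22.2, 38.1 and 31.9 in pab1Δpbp1Δ (2.40 ± 0.64, adjusted p = 0.00111, not called on leaving out replicate 2 of pab1Δpbp1Δ). ICL1 had 4.59, 6.08 and 11 in pbp1Δ and 12.5, 32 and 25.2 in pab1Δpbp1Δ and was not called (adjusted p = 0.0491). These levels stayed low in absolute terms: the whole list took 0.0124, 0.0128 and 0.0124% of footprints in pbp1Δ and 0.0241, 0.0557 and 0.0427% in pab1Δpbp1Δ.

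Beta-oxidation, the peroxisomal breakdown of fatty acids, had 6 of 12 tested genes called higher and 0 lower, at a median log2 fold change of 1.53, though only 3 were called without pbp1Δ replicate 3. PEX11, a protein of peroxisome division, was its most abundant called gene, with 531, 470 and 461 in pbp1Δ and 947, 1040 and 898 in pab1Δpbp1Δ (0.98 ± 0.16, adjusted p = 1.68e-08). POX1, the acyl-CoA oxidase that starts the pathway, was picked after its values were seen, with 0.917, 1.74 and 1.99 in pbp1Δ and 37.6, 45.0 and 42.0 in pab1Δpbp1Δ (4.75 ± 0.81, adjusted p = 1.02e-07). CAT2, a carnitine acetyltransferase that moves acetyl units out of the peroxisome, likewise picked, had 9.17, 4.34 and 7.96 in pbp1Δ and 38.5, 110 and 77.3 in pab1Δpbp1Δ (3.4 ± 0.57). Among the regulators, ADR1, the transcription factor that activates ADH2 and peroxisomal genes when glucose is short, had 33.0, 59.9 and 56.7 in pbp1Δ and 446, 753 and 477 in pab1Δpbp1Δ (3.49 ± 0.30, adjusted p = 1.14e-28). CAT8, the activator of gluconeogenic genes, and the stress activators MSN2 and MSN4, all picked for their role after their values were seen, were not called: CAT8 had 38.5, 32.1 and 26.9 in pbp1Δ and 43.4, 48.0 and 25.2 in pab1Δpbp1Δ, MSN2 had 458, 345 and 279 in pbp1Δ and 573, 515 and 486 in pab1Δpbp1Δ (adjusted p = 0.0463) and MSN4 had 280, 182 and 174 in pbp1Δ and 251, 274 and 271 in pab1Δpbp1Δ (adjusted p = 0.340).

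At the entry of glucose the picture differed by transporter. HXT2, a high-affinity hexose transporter, had 3785, 3951 and 3819 in pbp1Δ and 981, 784 and 610 in pab1Δpbp1Δ (-2.28 ± 0.19, adjusted p = 9.92e-31). HXT4, another high-affinity transporter, had 240 to 341 in pbp1Δ against 74.2, 57.2 and 45.4 in the pab1Δpbp1Δ libraries (-2.30 ± 0.27, adjusted p = 2.81e-15), and HXT3, the most abundant of those called, was lower, at -0.45 ± 0.12, not called by edgeR or on leaving out replicate 2 or 3 of pbp1Δ or replicate 3 of pab1Δpbp1Δ. The low-affinity HXT1, picked after its values were seen, had 921, 1075 and 1097 in pbp1Δ and 1148, 1060 and 1155 in pab1Δpbp1Δ (adjusted p = 0.602). HXT10 and HXT14, picked after their values were seen, were the members called higher, both at low counts. HXT10 had 2.75, 2.60 and 1.99 in pbp1Δ and 43.4, 29.7 and 35.3 in pab1Δpbp1Δ, and HXT14 had 0, 0 and 1.99 in pbp1Δ and 10.6, 15.3 and 10.1 in pab1Δpbp1Δ, not called on leaving out replicate 1 or 2 of pbp1Δ or replicate 1, 2 or 3 of pab1Δpbp1Δ. The list had 3 calls in all without pab1Δpbp1Δ replicate 3. The transporters share much of their sequence, and their split rests on the authors' estimation step. The list took 0.267 ± 0.00257% of footprints in the pbp1Δ group against 0.177 ± 0.0145% in pab1Δpbp1Δ (mean ± SD of 3 libraries), and the groups did not overlap (two-sided exact permutation p = 0.10, the smallest possible, 0.197 adjusted).

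The pentose phosphate pathway, which makes NADPH and ribose, had 4 of 11 genes called higher and 3 lower. Among those lower, ZWF1, which commits glucose 6-phosphate to the pathway, had 1564, 1710 and 1681 in pbp1Δ and 871, 930 and 918 in pab1Δpbp1Δ (-0.87 ± 0.14, adjusted p = 6.85e-09), RKI1, the ribose 5-phosphate isomerase, had 331, 404 and 424 in pbp1Δ and 146, 135 and 129 in pab1Δpbp1Δ (-1.49 ± 0.21), and GND1, the major 6-phosphogluconate dehydrogenase, was lower, at -0.61 ± 0.16, not called by edgeR or on leaving out replicate 1 or 2 of pbp1Δ or replicate 2 or 3 of pab1Δpbp1Δ. The genes called higher were minor isoenzymes. SOL4, a 6-phosphogluconolactonase, had 18.3, 13.0 and 6.97 in pbp1Δ and 163, 159 and 185 in pab1Δpbp1Δ (3.71 ± 0.37, adjusted p = 2.71e-21), NQM1, a second transaldolase, had 9.17, 11.3 and 7.96 in pbp1Δ and 63.6, 112 and 99.2 in pab1Δpbp1Δ (3.27 ± 0.45), GND2 had 15.6, 19.1 and 21.9 in pbp1Δ and 67.4, 138 and 79.0 in pab1Δpbp1Δ (2.34 ± 0.43) and TKL2, a second transketolase, had 1.83, 1.74 and 3.98 in pbp1Δ and 9.63, 29.7 and 31.9 in pab1Δpbp1Δ (3.25 ± 0.87, not called on leaving out replicate 2 of pbp1Δ or replicate 2 or 3 of pab1Δpbp1Δ). Of the main forms paired with them, SOL3 (0.49 ± 0.29), TAL1 (-0.20 ± 0.19) and TKL1 (-0.36 ± 0.22) were not called. The list took 0.418 ± 0.00995% of footprints in the pbp1Δ group against 0.371 ± 0.0272% in pab1Δpbp1Δ (mean ± SD of 3 libraries), with an exact permutation p of 0.10.

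Minor and main forms were compared over 42 pairs of paralogous enzymes, most of them written with the form known from respiring, stressed or starved cells first and the main form in glucose second. The log2 ratio of the pair was taken within each library, so that it hardly depends on scaling. The ratios of 34 pairs did not overlap between the groups, with the first gene relatively higher in pab1Δpbp1Δ in 31 and lower in 3. The pairs and the order within them were set with earlier results of these data known, so this tally is only a description. Non-overlapping counts of single entries were common as well, at 45.9% of those tested. In most pairs the first gene was the scarcer. Over all tested entries the median log2 fold change was 0.98 in the scarcest decile of abundance and -0.21 in the most abundant. The part of abundance in these ratios was not tested. HXK2, TDH3, PDC1 and PET9 recur among the pairs, so the pairs are not all independent. No pair could pass a threshold of 0.05, since the smallest exact permutation p is 0.10 and the smallest after adjustment over the 42 pairs was 0.124.

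TDH1 over TDH3, both glyceraldehyde-3-phosphate dehydrogenases, had log2 ratios of -8.56, -8.87 and -8.98 in pbp1Δ and -6.12, -5.98 and -5.91 in pab1Δpbp1Δ. Behind it, TDH1 had counts of 344, 307 and 287 in pbp1Δ and 1655, 2227 and 2888 in pab1Δpbp1Δ (2.85 ± 0.22, adjusted p = 3.30e-35), and TDH3, the most abundant entry of the table, had 130254, 143804 and 145734 in pbp1Δ and 114837, 140895 and 174261 in pab1Δpbp1Δ (0.03 ± 0.18, not called). Enolase, phosphoglycerate mutase and the hexokinases had the same direction: the log2 ratio was higher by 1.19 for ENO1 over ENO2, by 2.59 for GPM2 over GPM1, by 0.82 for HXK1 over HXK2 and by 0.88 for GLK1 over HXK2. In each of them the minor gene was called higher and the main gene was not called. GLK1, glucokinase, had 2551, 3113 and 2927 in pbp1Δ and 5804, 7808 and 5707 in pab1Δpbp1Δ (1.17 ± 0.18), whereas HXK2 had 8312, 10546 and 9753 in pbp1Δ and 11544, 12436 and 10518 in pab1Δpbp1Δ.

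In other pairs the main form was lower. ALD4 over ALD6 was higher by 0.99 on the log2 scale, and there ALD6, the cytosolic aldehyde dehydrogenase that makes acetate, had 15435, 22321 and 19943 in pbp1Δ and 8481, 10980 and 10750 in pab1Δpbp1Δ (-0.93 ± 0.19, adjusted p = 7.40e-06) while ALD4, the mitochondrial form, had 638, 755 and 774 in pbp1Δ and 642, 1016 and 659 in pab1Δpbp1Δ and was not called. BAT2, the cytosolic branched-chain aminotransferase, was higher by 0.68 ± 0.16 and BAT1, the mitochondrial form, was lower, at -0.46 ± 0.12 (not called by edgeR or on leaving out replicate 2 of pbp1Δ and not called by edgeR or on leaving out replicate 2 or 3 of pbp1Δ, respectively). The pairs with a lower ratio and no overlap were GSY1 over GSY2, GRX1 over GRX2 and TDH2 over TDH3, at -1.76, -0.42 and -0.21 on the log2 scale. GSY1 over GSY2, the glycogen synthases, had ratios of 0.10, 0.18 and 0.08 in pbp1Δ and -1.25, -2.13 and -1.54 in pab1Δpbp1Δ. GSC2 over FKS1, the subunits of cell wall glucan synthase, had ratios of -6.54, -6.15 and -6.32 in pbp1Δ and -4.57, -3.56 and -4.41 in pab1Δpbp1Δ, with GSC2 at 109, 173 and 144 in pbp1Δ and 628, 1010 and 592 in pab1Δpbp1Δ (2.39 ± 0.27, adjusted p = 7.20e-17). GSP2 over GSP1, the Ran GTPases of nuclear transport, was higher by 1.5. Some pairs kept their ratio within the spread of the libraries, among them SAM1 over SAM2, HMG2 over HMG1, ANB1 over HYP2 and GPD1 over GPD2, of which SAM1 (-0.99 ± 0.18) and SAM2 (-0.92 ± 0.14) were both called lower. Near-identical pairs such as TDH2 and TDH3 or ENO1 and ENO2 share footprints, which the authors' estimation divided between them.

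**Figure D2:**
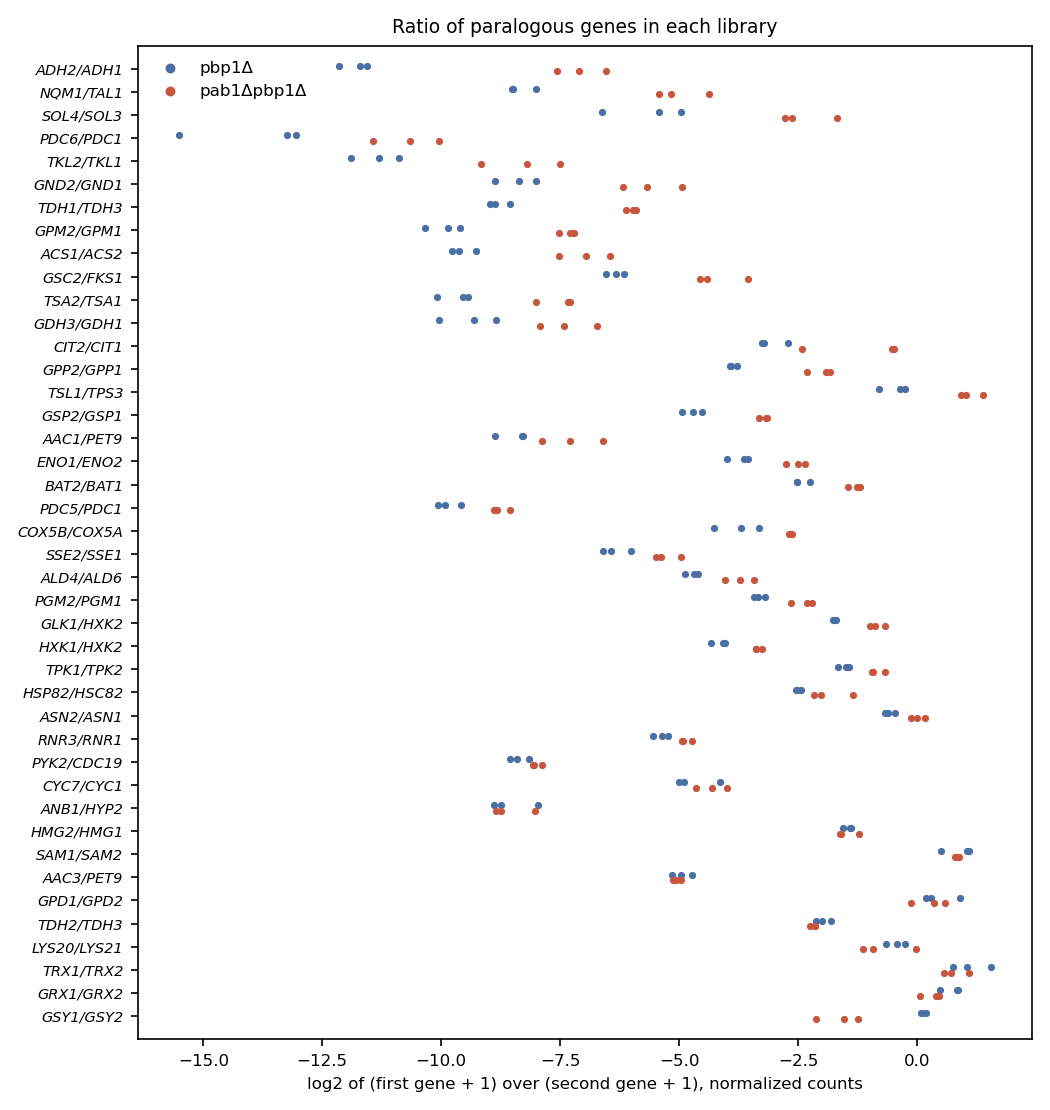
Log2 ratio of normalized counts (x axis, 1 added to each count) of 42 paralogous pairs (y axis) in each of 3 pbp1Δ libraries (blue) and 3 pab1Δpbp1Δ libraries (red), ordered by the difference of the group means. The groups do not overlap in 34 pairs, and the first gene is relatively higher in pab1Δpbp1Δ in 31 of them.

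In mitochondria, the tricarboxylic acid cycle had genes called higher at its early steps. CIT1, the mitochondrial citrate synthase, had 716, 754 and 772 in pbp1Δ and 1614, 2498 and 1790 in pab1Δpbp1Δ (1.40 ± 0.20, adjusted p = 4.65e-11), and IDH2, a subunit of isocitrate dehydrogenase, had 1357, 1501 and 1700 in pbp1Δ and 2691, 3661 and 2999 in pab1Δpbp1Δ (1.04 ± 0.18). IDH1, its partner, was higher by 0.69 ± 0.17, not called by edgeR or on leaving out replicate 2 or 3 of pbp1Δ. In all, 6 of 17 tested genes were called higher and 1 lower, the lower being SDH1, the flavoprotein of succinate dehydrogenase (-0.80 ± 0.24, not called by edgeR or on leaving out replicate 2 or 3 of pbp1Δ or replicate 1 of pab1Δpbp1Δ). The list had 4 calls by edgeR and 4 without pbp1Δ replicate 2 or 3. It took 0.307, 0.358 and 0.352% of footprints in pbp1Δ and 0.405, 0.604 and 0.473% in pab1Δpbp1Δ. Cytochrome c rose in both of its forms, CYC1 with 547, 367 and 350 in pbp1Δ and 1589, 966 and 1227 in pab1Δpbp1Δ (1.58 ± 0.25) and CYC7 with 17.4, 10.4 and 18.9 in pbp1Δ and 62.6, 59.5 and 60.5 in pab1Δpbp1Δ (1.97 ± 0.43).

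Mitochondrial protein import had 9 of 34 genes called higher and 2 lower, with 7 calls in all by edgeR and without pbp1Δ replicate 2 or 3. Its median effective length was 987 bases, and 16.7% of tested entries in that decile of length were called higher, a part that was not tested. The small chaperones of the intermembrane space were among the former, with TIM9 at 1117, 996 and 1090 in pbp1Δ and 2037, 2683 and 4858 in pab1Δpbp1Δ (1.58 ± 0.28) and TIM12 at 85.3, 65.1 and 59.7 in pbp1Δ and 276, 181 and 220 in pab1Δpbp1Δ (1.68 ± 0.28). SSC1, the matrix Hsp70 of the import motor, had 5560, 7505 and 6820 in pbp1Δ and 11526, 12333 and 9145 in pab1Δpbp1Δ (0.73 ± 0.18, not called by edgeR), and HSP60, the matrix chaperonin and a gene of no list, had 2635, 2971 and 2714 in pbp1Δ and 7169, 8112 and 4243 in pab1Δpbp1Δ (1.23 ± 0.23, adjusted p = 1.32e-06). Of the receptors, TOM70 was lower at -0.83 ± 0.22, not called by edgeR or on leaving out replicate 1 of pbp1Δ or replicate 1 or 3 of pab1Δpbp1Δ, and TOM71 at -0.62 ± 0.20, not called by edgeR or on leaving out replicate 1, 2 or 3 of pbp1Δ or replicate 2 or 3 of pab1Δpbp1Δ. TOM40, the import channel, picked after its values were seen, had 2756, 2976 and 3072 in pbp1Δ and 2800, 2872 and 3059 in pab1Δpbp1Δ (adjusted p = 0.958). Factors of mitochondrial translation had no call among 25 tested genes by DESeq2 and 0 by edgeR, with 2 at an unadjusted p below 0.05.

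Antioxidant genes were more often called higher than lower, with 13 of 28 called higher and 2 lower. GRX2, a glutaredoxin, had 470, 366 and 333 in pbp1Δ and 1493, 1361 and 1326 in pab1Δpbp1Δ (1.84 ± 0.18, adjusted p = 8.43e-22), and its paralog GRX1 had 655, 653 and 604 in pbp1Δ and 1957, 1887 and 1382 in pab1Δpbp1Δ (1.45 ± 0.18, adjusted p = 6.59e-14). TRX3, the mitochondrial thioredoxin, had 118, 101 and 99.5 in pbp1Δ and 417, 497 and 368 in pab1Δpbp1Δ (2.01 ± 0.22), and AHP1, an abundant peroxiredoxin, had 6036, 4919 and 5341 in pbp1Δ and 7986, 11199 and 10649 in pab1Δpbp1Δ (0.87 ± 0.18). The genes called lower were those of TRR1, the cytosolic thioredoxin reductase with 1208, 1338 and 1385 in pbp1Δ and 857, 686 and 610 in pab1Δpbp1Δ (-0.86 ± 0.18), and GSH1, the first enzyme of glutathione synthesis with 214, 358 and 340 in pbp1Δ and 104, 141 and 123 in pab1Δpbp1Δ (-1.31 ± 0.27). Antioxidant transcripts were short, with a median effective length of 800 bases, and 20.3% of all tested entries in that decile of length were called higher. The part of length in this result was not tested.

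**Figure D3:**
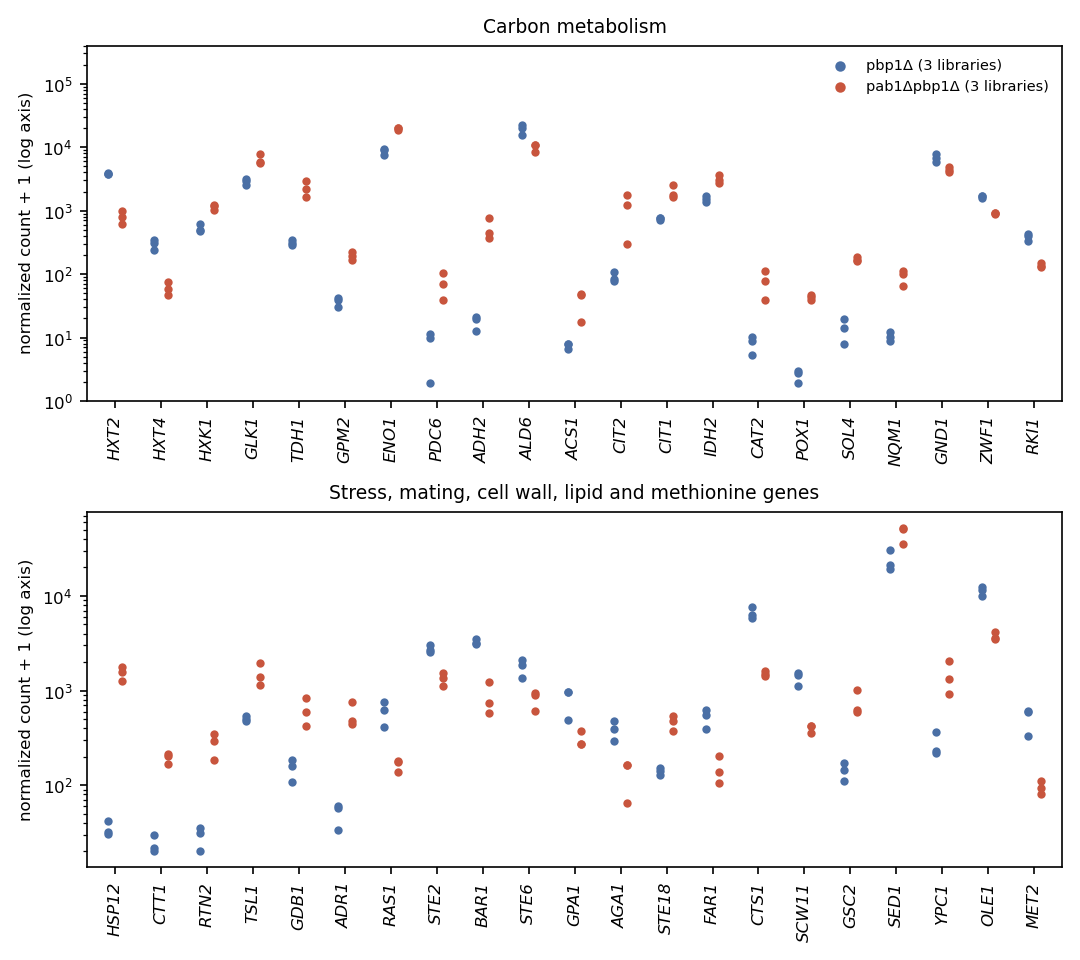
Normalized counts plus 1 (y axis, log scale) of 42 genes (x axis) in each of 3 pbp1Δ libraries (blue) and 3 pab1Δpbp1Δ libraries (red), with carbon metabolism above and stress, mating, cell wall, lipid and methionine genes below. Each point is a library; HXT2 lies between 3785 and 3951 in pbp1Δ and between 610 and 981 in pab1Δpbp1Δ, and both groups are apart for each gene shown.

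By number, ribosome assembly held the most genes called lower of the lists examined, but its lists were also among the largest. The share called lower was 44.1% in the large subunit list and 34.7% in the small subunit list. Some smaller lists had a larger share called lower, among them haploid-specific genes (5 of 9), branched-chain synthesis (6 of 11) and karyopherins (9 of 20). The small subunit processome, the large particle that folds and cleaves the precursor of the small subunit RNA, had 17 of 49 tested genes called lower and 0 higher, at a median log2 fold change of -0.50. Only 2 of its members had a log2 fold change above 0. By edgeR 10 were called lower, and without pbp1Δ replicate 2 only 7. SAS10 had 970, 1701 and 2349 in pbp1Δ and 614, 541 and 382 in pab1Δpbp1Δ (-1.71 ± 0.30, adjusted p = 2.34e-07) and RRP9, which binds the U3 small nucleolar RNA, had 349, 460 and 481 in pbp1Δ and 168, 165 and 123 in pab1Δpbp1Δ (-1.49 ± 0.23). The list took 0.724, 0.861 and 0.852% of footprints in pbp1Δ and 0.595, 0.614 and 0.540% in pab1Δpbp1Δ.

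Assembly of the large subunit had 26 of 59 genes called lower and 0 higher, at a median of -0.60, and 18 by edgeR. DBP3, an RNA helicase, had 1367, 1311 and 1163 in pbp1Δ and 619, 568 and 393 in pab1Δpbp1Δ (-1.28 ± 0.20, adjusted p = 6.79e-09), and NOP7, a member of the PeBoW complex, had 1115, 1512 and 1467 in pbp1Δ and 545, 605 and 578 in pab1Δpbp1Δ (-1.24 ± 0.18, adjusted p = 8.97e-11). Both lists had a median effective length near 1743 to 1798 bases, where 17.4% of all tested entries in that decile of length were called lower; the part of length was not tested. RNA polymerases I and III, which transcribe ribosomal and transfer RNA, had 6 of 20 genes called lower and 0 higher, of which RPA135, the second largest subunit of polymerase I, had 3926, 5583 and 5946 in pbp1Δ and 2460, 3406 and 2859 in pab1Δpbp1Δ (-0.82 ± 0.20, not called by edgeR or on leaving out replicate 2 or 3 of pbp1Δ). In this list 2 were called by edgeR and 1 without pbp1Δ replicate 3.

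Enzymes of tRNA showed the same direction. For tRNA modification, 15 of 39 genes were called lower and 1 higher, with 7 calls in all without pbp1Δ replicate 2. NCL1, a tRNA cytosine methyltransferase, had 907, 1147 and 1052 in pbp1Δ and 547, 562 and 541 in pab1Δpbp1Δ (-0.91 ± 0.16, adjusted p = 3.48e-07), TRM2 was lower, at -0.93 ± 0.19, as was DEG1, a pseudouridine synthase, at -0.99 ± 0.23. The member called higher was TRM112, a small activator of several methyltransferases, with 878, 731 and 669 in pbp1Δ and 1138, 1130 and 1399 in pab1Δpbp1Δ, not called by edgeR or on leaving out replicate 2 or 3 of pbp1Δ or replicate 3 of pab1Δpbp1Δ. Of 21 cytosolic aminoacyl-tRNA synthetases 5 (23.8%) were called lower, with MES1 (methionine) at 3882, 6407 and 5768 in pbp1Δ and 2470, 2710 and 2125 in pab1Δpbp1Δ (-1.14 ± 0.21) and CDC60 (leucine) at 6250, 9317 and 8055 in pbp1Δ and 4469, 4542 and 3347 in pab1Δpbp1Δ (-0.93 ± 0.20), and none higher. Their median effective length was 2234 bases, and 18.1% of tested entries in that decile of length were called lower. The part of length was not tested. The synthetases' share of footprints overlapped between the groups. Footprints of ASC1, a protein of the small subunit's head and a gene of no list, were 40179, 42719 and 45244 in pbp1Δ and 19206, 22609 and 23215 in pab1Δpbp1Δ (-0.98 ± 0.14, adjusted p = 1.28e-10). EFB1, the exchange factor of the elongation factor eEF1A, had 16413, 10820 and 11215 in pbp1Δ and 4993, 5823 and 7753 in pab1Δpbp1Δ (-1.05 ± 0.22).

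Transport through the nuclear pore gave weaker calls. Karyopherins, the carriers that move proteins and RNA through it, had 9 of 20 genes called lower and 1 higher, but by edgeR only 2 lower and 1 higher, and with scaling by total counts 4 and 1. Without pbp1Δ replicate 2, 2 were called in all. KAP95, importin beta, had 1560, 1972 and 1790 in pbp1Δ and 864, 1108 and 945 in pab1Δpbp1Δ (-0.87 ± 0.17, adjusted p = 6.00e-06) and kept its call by edgeR and on leaving out each library. GSP2, the scarcer Ran, was the member called higher, with 60.5, 59.0 and 63.7 in pbp1Δ and 256, 287 and 178 in pab1Δpbp1Δ (1.99 ± 0.27). Nuclear pore proteins had 7 of 29 called lower and 1 higher, with 3 lower and 0 higher by edgeR and 3 calls in all without pbp1Δ replicate 2. The higher one was NUP188, a large scaffold protein, with 1183, 1608 and 1535 in pbp1Δ and 2233, 3465 and 2205 in pab1Δpbp1Δ (0.87 ± 0.22, not called by edgeR). Among those lower were NDC1 at 507, 589 and 559 in pbp1Δ and 278, 300 and 331 in pab1Δpbp1Δ (-0.87 ± 0.17) and NUP2 at 855, 812 and 778 in pbp1Δ and 543, 474 and 506 in pab1Δpbp1Δ (-0.68 ± 0.15). Both lists held long transcripts, with median effective lengths of 3044 and 2372 bases, whose part in these counts was not tested.

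The vesicle coats COPI and COPII of the early secretory pathway had 6 of 17 genes called lower and 0 higher, 2 by edgeR and 3 without pbp1Δ replicate 2. Their median effective length was 2861 bases, and 16% of tested entries in that decile of length were called lower, a part that was not tested. SEC23 of the COPII inner coat had 4561, 5695 and 4981 in pbp1Δ and 2196, 2874 and 2532 in pab1Δpbp1Δ (-1.0 ± 0.17, adjusted p = 3.61e-08). Another list, translocation into the endoplasmic reticulum and N-glycosylation, had 3 of 28 genes called higher and 7 lower. It had 5 calls in all by edgeR and 4 without pbp1Δ replicate 2, and its share of footprints overlapped between the groups. In that list SEC63, which couples the translocon to its luminal Hsp70, had 1469, 1286 and 1166 in pbp1Δ and 740, 567 and 600 in pab1Δpbp1Δ (-1.04 ± 0.18), and STT3, the catalytic subunit of the oligosaccharyltransferase, had 3840, 3691 and 3718 in pbp1Δ and 2437, 2415 and 2432 in pab1Δpbp1Δ (-0.63 ± 0.12). SPC2 of the signal peptidase was higher, with 336, 295 and 349 in pbp1Δ and 561, 619 and 530 in pab1Δpbp1Δ (0.81 ± 0.17). PSA1, which makes the GDP-mannose used in glycosylation and was in no list, had 16852, 19052 and 19584 in pbp1Δ and 9199, 7527 and 7366 in pab1Δpbp1Δ (-1.20 ± 0.15, adjusted p = 1.74e-13).

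HAC1, whose mRNA is spliced by Ire1 to make the activator of the unfolded protein response, had 516, 337 and 324 in pbp1Δ and 133, 187 and 131 in pab1Δpbp1Δ in its spliced entry (-1.37 ± 0.27, adjusted p = 3.59e-06) and, as HAC1 unspliced, 0, 5.21 and 11 in pbp1Δ and 10.6, 42.7 and 123 in pab1Δpbp1Δ (3.44 ± 0.93, adjusted p = 0.00131, not called by edgeR or on leaving out replicate 2 or 3 of pbp1Δ or replicate 2 or 3 of pab1Δpbp1Δ). The entries share most of their sequence, so that the division between them was an estimate, and pab1Δpbp1Δ replicate 1 did not exceed the highest pbp1Δ library in the unspliced one. Chaperones of the endoplasmic reticulum and the response itself had 2 of 14 genes called lower and 0 higher, and 1 in all without pab1Δpbp1Δ replicate 2. Their called share was 14.3%, and 13.1% of tested entries in their decile of length were called lower. Over all 201 unspliced entries tested, 10 were called higher and 0 lower. Over all tested entries the shares were larger, at 11.1% called higher and 10.2% lower.

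Amino acid synthesis was lower for some families and divided for others. Sulfate assimilation and methionine synthesis had 9 of 22 genes called lower and 0 higher, at a median of -0.62, with 4 called by edgeR and 4 without pbp1Δ replicate 2. MET2, homoserine acetyltransferase, had 327, 599 and 612 in pbp1Δ and 91.5, 110 and 79.0 in pab1Δpbp1Δ (-2.44 ± 0.29, adjusted p = 1.27e-15), and MET3, ATP sulfurylase, had 183, 248 and 214 in pbp1Δ and 84.8, 89.2 and 84.1 in pab1Δpbp1Δ (-1.32 ± 0.24). Of the S-adenosylmethionine synthetases, SAM1 had 6952, 9197 and 9809 in pbp1Δ and 4871, 4257 and 3942 in pab1Δpbp1Δ, and SAM2 had 4911, 4475 and 4565 in pbp1Δ and 2665, 2465 and 2241 in pab1Δpbp1Δ. The list took 1.03, 1.26 and 1.21% of footprints in pbp1Δ and 0.888, 0.855 and 0.625% in pab1Δpbp1Δ, without overlap (exact permutation p = 0.10, 0.197 adjusted).

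Lysine synthesis had 4 of 8 genes called lower, with the homocitrate synthases LYS20 (-1.13 ± 0.24) and LYS21 (-0.93 ± 0.16) and the homoaconitase LYS4 (-0.85 ± 0.15) among them. Arginine synthesis had 3 of 9 called lower, but its median was 0.07. The ones called included the mitochondrial enzymes ARG8, with 240, 242 and 266 in pbp1Δ and 76.1, 101 and 79.0 in pab1Δpbp1Δ (-1.53 ± 0.24), and ARG56, with 718, 889 and 838 in pbp1Δ and 208, 381 and 155 in pab1Δpbp1Δ (-1.71 ± 0.30), both of the ornithine branch. Branched-chain synthesis had 6 of 11 called lower and 1 higher by DESeq2, with 1 call in all by edgeR and 2 without pbp1Δ replicate 2. HIS5, histidinol-phosphate aminotransferase, was the histidine gene called, higher with 150, 150 and 150 in pbp1Δ and 500, 384 and 435 in pab1Δpbp1Δ (1.55 ± 0.20, adjusted p = 4.30e-13). Aromatic amino acid synthesis had no call among 14 genes by DESeq2 and 0 by edgeR, with 6 at an unadjusted p below 0.05.

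Serine, glutamate and related routes held calls in both directions, 5 higher and 5 lower of 21. SER3, the first enzyme of serine synthesis from glycolysis, had 180, 289 and 264 in pbp1Δ and 1266, 4188 and 1400 in pab1Δpbp1Δ (3.23 ± 0.59, adjusted p = 9.78e-07), with pab1Δpbp1Δ replicate 2 well above the other isolates. GDH2, which breaks glutamate down, had 304, 445 and 392 in pbp1Δ and 1102, 2446 and 820 in pab1Δpbp1Δ (1.94 ± 0.34), not called on leaving out replicate 1 of pbp1Δ. GLY1, threonine aldolase, had 6456, 6514 and 6063 in pbp1Δ and 3485, 2744 and 2574 in pab1Δpbp1Δ (-1.11 ± 0.16, adjusted p = 2.03e-10), ASN1, asparagine synthetase, had 5481, 9024 and 9059 in pbp1Δ and 3394, 4077 and 2991 in pab1Δpbp1Δ (-1.17 ± 0.22) and AAT1, the mitochondrial aspartate aminotransferase, had 479, 536 and 627 in pbp1Δ and 223, 261 and 242 in pab1Δpbp1Δ (-1.18 ± 0.19). GCN4, the activator of amino acid synthesis, picked for its role after its values were seen, had 213, 180 and 186 in pbp1Δ and 124, 164 and 129 in pab1Δpbp1Δ (adjusted p = 0.125).

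Uptake and use of nitrogen compounds divided as well. Amino acid permeases had 7 of 20 called lower and 1 higher, but by edgeR 3 lower and 2 higher, and 5 in all without pab1Δpbp1Δ replicate 3. LYP1, the lysine permease, had 1222, 1196 and 1199 in pbp1Δ and 645, 476 and 582 in pab1Δpbp1Δ (-1.09 ± 0.17, adjusted p = 4.08e-09), and PUT4, the proline permease, had 214, 199 and 197 in pbp1Δ and 419, 438 and 612 in pab1Δpbp1Δ (1.26 ± 0.21, adjusted p = 8.25e-08). Genes under nitrogen catabolite repression, which are held down while good nitrogen sources last, had 4 of 18 called higher and 0 lower, though only 2 without pbp1Δ replicate 2. CAR1, arginase, had 657, 533 and 544 in pbp1Δ and 1317, 1349 and 1241 in pab1Δpbp1Δ (1.17 ± 0.16, adjusted p = 7.26e-12). DUR12, urea amidolyase, had 394, 865 and 596 in pbp1Δ and 1464, 6574 and 1689 in pab1Δpbp1Δ (2.39 ± 0.75), not called by edgeR or on leaving out replicate 1, 2 or 3 of pbp1Δ.

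For nucleotides, ADE17, which carries out the last steps of inosine monophosphate synthesis, had 119, 151 and 127 in pbp1Δ and 764, 1235 and 814 in pab1Δpbp1Δ (2.82 ± 0.24, adjusted p = 7.39e-30), and ADE1, an earlier step, had 732, 671 and 677 in pbp1Δ and 1390, 1106 and 1103 in pab1Δpbp1Δ (0.79 ± 0.17). GUA1, which makes guanine nucleotides, had 4719, 5172 and 4783 in pbp1Δ and 2512, 3419 and 2775 in pab1Δpbp1Δ (-0.75 ± 0.16), and in pyrimidine synthesis URA5 had 1813, 1756 and 1883 in pbp1Δ and 981, 1137 and 883 in pab1Δpbp1Δ (-0.86 ± 0.16). The purine list as a whole had 4 called higher and 4 lower of 20, with 3 calls in all by edgeR and 3 without pbp1Δ replicate 2.

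Fatty acid and phospholipid synthesis had 2 of 20 genes called higher and 6 lower. OLE1, the delta-9 desaturase that makes all unsaturated fatty acids in yeast, had 10070, 12474 and 11460 in pbp1Δ and 4167, 3579 and 3505 in pab1Δpbp1Δ (-1.60 ± 0.15, adjusted p = 1.92e-23), and its groups were far apart. FAS1, a subunit of fatty acid synthase picked for its role after its values were seen, had 18229, 26281 and 21726 in pbp1Δ and 15461, 27450 and 17276 in pab1Δpbp1Δ (adjusted p = 0.715). CDS1, which makes CDP-diacylglycerol, was lower, at -0.91 ± 0.20, and the elongase ELO1 was higher by 0.89 ± 0.18. Sphingolipid synthesis had 4 of 21 genes called higher and 6 lower, and 3 calls in all without pbp1Δ replicate 3. LCB1, a catalytic subunit of serine palmitoyltransferase, had 2175, 2122 and 2020 in pbp1Δ and 1166, 1022 and 1005 in pab1Δpbp1Δ (-0.98 ± 0.14, adjusted p = 1.41e-10), whereas TSC3, the small activator of the same enzyme, had 142, 94.6 and 80.6 in pbp1Δ and 277, 189 and 383 in pab1Δpbp1Δ (1.41 ± 0.32). YPC1, a ceramidase, had 363, 229 and 220 in pbp1Δ and 2043, 920 and 1315 in pab1Δpbp1Δ (2.40 ± 0.30, adjusted p = 8.75e-14). Ergosterol synthesis had 5 of 24 genes called higher, among them ERG28 (0.85 ± 0.19), and 2 lower, HMG1 (-0.54 ± 0.16, not called by edgeR or on leaving out replicate 1, 2 or 3 of pbp1Δ or replicate 2 of pab1Δpbp1Δ) and HMG2 (-0.57 ± 0.14, not called by edgeR or on leaving out replicate 2 or 3 of pbp1Δ). The list had 3 calls by edgeR and 3 without pbp1Δ replicate 3.

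Cell wall genes were called in both directions, 8 higher and 10 lower of 34. CTS1, the endochitinase that helps to part mother and daughter cells, had 6227, 7641 and 5910 in pbp1Δ and 1496, 1418 and 1604 in pab1Δpbp1Δ (-2.13 ± 0.16, adjusted p = 5.61e-39), SCW11, a glucanase-like protein, had 1534, 1454 and 1129 in pbp1Δ and 425, 358 and 422 in pab1Δpbp1Δ (-1.78 ± 0.18, adjusted p = 1.04e-19), and EGT2, picked after its values were seen, had 4964, 4530 and 3485 in pbp1Δ and 2083, 1209 and 1358 in pab1Δpbp1Δ (-1.48 ± 0.23). SED1, an abundant wall glycoprotein, was higher, with 30622, 21455 and 19287 in pbp1Δ and 52137, 35676 and 51488 in pab1Δpbp1Δ (0.96 ± 0.22, adjusted p = 1.23e-04), as was SVS1, a wall protein in no list, with 2383, 1509 and 1504 in pbp1Δ and 5118, 3678 and 6255 in pab1Δpbp1Δ (1.48 ± 0.25). HSP150, another abundant wall protein, had 9452, 8964 and 7978 in pbp1Δ and 5111, 4973 and 4818 in pab1Δpbp1Δ (-0.82 ± 0.13).

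Mating type genes checked the labelled cell type. The 7 a-specific genes tested had footprints, and the alpha-specific list stood at 0.000432 to 0.000614% of footprints in pbp1Δ and 0.00162 to 0.00241% in pab1Δpbp1Δ. Of the alpha-specific genes 2 were tested and 2 were called higher, at a median log2 fold change of 1.88, with 1 call by edgeR. The alpha-factor gene MF(ALPHA)1 stood at 0, 0 and 0 in pbp1Δ and 0, 2.29 and 0 in pab1Δpbp1Δ. The a-specific list itself was lower, at 0.139, 0.161 and 0.141% of footprints in pbp1Δ and 0.0482, 0.0786 and 0.0646% in pab1Δpbp1Δ (exact permutation p = 0.10, 0.197 adjusted). BAR1, the protease that destroys alpha-factor, had 3209, 3515 and 3088 in pbp1Δ and 573, 1246 and 735 in pab1Δpbp1Δ (-1.94 ± 0.26, adjusted p = 3.21e-12), STE2, the alpha-factor receptor, had 2717, 3051 and 2568 in pbp1Δ and 1128, 1535 and 1367 in pab1Δpbp1Δ (-1.05 ± 0.17) and STE6, the a-factor exporter, had 1344, 2116 and 1859 in pbp1Δ and 609, 942 and 903 in pab1Δpbp1Δ (-1.12 ± 0.23).

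Haploid-specific genes had 5 of 9 called lower and 1 higher. The pheromone-responsive G protein was split between its subunits: GPA1, the alpha subunit, had 494, 977 and 964 in pbp1Δ and 271, 370 and 271 in pab1Δpbp1Δ (-1.41 ± 0.28, adjusted p = 5.19e-06), STE4, the beta subunit, picked for its role after its values were seen, had 379, 398 and 381 in pbp1Δ and 203, 207 and 264 in pab1Δpbp1Δ (-0.79 ± 0.19, adjusted p = 3.69e-04, not called on leaving out replicate 2 of pbp1Δ), and STE18, the gamma subunit, had 153, 128 and 141 in pbp1Δ and 532, 371 and 479 in pab1Δpbp1Δ (1.71 ± 0.22, adjusted p = 4.06e-13). AGA1, the agglutinin anchor, had 472, 395 and 294 in pbp1Δ and 63.6, 164 and 161 in pab1Δpbp1Δ (-1.58 ± 0.34), and FAR1, which arrests the cycle in mating, had 397, 628 and 558 in pbp1Δ and 104, 203 and 136 in pab1Δpbp1Δ (-1.83 ± 0.29, adjusted p = 4.44e-09). Meiosis and sporulation genes, which vegetative haploid cells do not use, took a mean of 0.00199% of footprints in pbp1Δ and 0.00395% in pab1Δpbp1Δ, with 3 of 13 called higher but 0 to 1 when any library was left out, 0 of them without pab1Δpbp1Δ replicate 2.

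Among cyclins and regulators of the cell cycle 4 of 27 were called lower and 1 higher, and 3 in all without pbp1Δ replicate 2. The called share was 18.5%, below the 21.3% over all tested entries. In the decile of length of this list, 17.4% of tested entries were called lower. CLN2, the G1 cyclin, had 692, 886 and 957 in pbp1Δ and 350, 486 and 429 in pab1Δpbp1Δ (-1.0 ± 0.21), and PCL9, a cyclin of the Pho85 kinase, had 207, 260 and 242 in pbp1Δ and 110, 124 and 113 in pab1Δpbp1Δ (-1.03 ± 0.22). Of 36 replication genes 6 were called lower, with the helicase subunits MCM7 (-0.93 ± 0.20) and MCM3 (-0.69 ± 0.16) and the single-strand binding subunit RFA1 (-0.78 ± 0.18), and 1 higher, RFA3, a small subunit of the same complex (0.82 ± 0.20, not called on leaving out replicate 2 of pbp1Δ). Without pbp1Δ replicate 2 the list had 4 calls in all, and 18.1% of tested entries in its decile of length were called lower. Histones had no call among 11 genes by DESeq2 and 0 by edgeR, with 1 at an unadjusted p below 0.05.

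In nutrient signalling 5 of 32 genes were called lower and 1 higher. By edgeR 3 were called in all, and 2 without pbp1Δ replicate 2. The called share was 18.8%, below the 21.3% over all tested entries. In the decile of length of this list, 18.1% of tested entries were called lower. REG1, the member called higher (0.70 ± 0.23), lost its call by edgeR and in other fits. RAS1, a GTPase that activates adenylate cyclase, had 414, 625 and 766 in pbp1Δ and 138, 178 and 175 in pab1Δpbp1Δ (-1.88 ± 0.26, adjusted p = 2.06e-11), and its paralog RAS2 was lower, at -0.70 ± 0.21, not called by edgeR or on leaving out replicate 1, 2 or 3 of pbp1Δ or replicate 2 or 3 of pab1Δpbp1Δ. The stress kinase HOG1 had 1001, 1090 and 1183 in pbp1Δ and 705, 705 and 629 in pab1Δpbp1Δ (-0.68 ± 0.15). Of 58 transcription regulators 3 were called higher and 3 lower, the lower ones being HAC1, PHD1, a regulator of filamentous growth with 252, 226 and 213 in pbp1Δ and 51.1, 69.4 and 72.3 in pab1Δpbp1Δ (-1.85 ± 0.26), and HAP1, the haem-responsive activator with 371, 425 and 444 in pbp1Δ and 239, 255 and 266 in pab1Δpbp1Δ (-0.71 ± 0.18, not called on leaving out replicate 2 or 3 of pbp1Δ). The called share of this list, by either direction, was 10.3%, below the 21.3% over all tested entries.

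Metal and phosphate genes separated within each regulon. FRE1, a cell surface reductase of iron and copper, had 1069, 1392 and 1143 in pbp1Δ and 262, 266 and 192 in pab1Δpbp1Δ (-2.31 ± 0.20, adjusted p = 1.22e-28), while ISU1, the scaffold of iron-sulfur clusters, had 463, 269 and 318 in pbp1Δ and 880, 867 and 2017 in pab1Δpbp1Δ (1.84 ± 0.33) and HMX1, haem oxygenase, had 140, 162 and 178 in pbp1Δ and 349, 458 and 535 in pab1Δpbp1Δ (1.48 ± 0.23). VTC4, the polyphosphate polymerase, had 3386, 4441 and 4642 in pbp1Δ and 1908, 1783 and 1535 in pab1Δpbp1Δ (-1.25 ± 0.18, adjusted p = 5.86e-11), and PHO3, an acid phosphatase, had 1059, 896 and 964 in pbp1Δ and 1555, 2305 and 2560 in pab1Δpbp1Δ (1.14 ± 0.21). PHO84, the high-affinity phosphate transporter, was lower, at -1.5 ± 0.32, not called on leaving out replicate 1 of pbp1Δ or replicate 2 of pab1Δpbp1Δ.

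Messenger RNA processing lists were close to the background or under it. Cleavage and polyadenylation had no call among 23 tested genes by DESeq2 and 0 by edgeR, with 1 at an unadjusted p below 0.05, and the spliceosome had 1 called higher and 1 lower of 48, and 0 without pbp1Δ replicate 2. Among mRNA-binding regulators 6 of 40 were called lower, including NEW1, with 3495, 4993 and 4442 in pbp1Δ and 1981, 2635 and 1772 in pab1Δpbp1Δ (-1.02 ± 0.20), SCP160, with 4156, 5313 and 4493 in pbp1Δ and 2734, 2686 and 2051 in pab1Δpbp1Δ (-0.90 ± 0.18), and MRN1, with 351, 345 and 436 in pbp1Δ and 179, 191 and 213 in pab1Δpbp1Δ (-0.96 ± 0.20), and 2 higher, including JSN1, a Puf-family protein, with 448, 477 and 459 in pbp1Δ and 671, 909 and 798 in pab1Δpbp1Δ (0.78 ± 0.18).

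Autophagy had 4 of 33 genes called higher and 0 lower, a share of 12.1% beside the 11.1% called higher over all tested entries, and 2 were called without pab1Δpbp1Δ replicate 1. ATG36, the receptor for degradation of peroxisomes, had 79.8, 73.8 and 110 in pbp1Δ and 400, 371 and 311 in pab1Δpbp1Δ (2.05 ± 0.24, adjusted p = 1.89e-15). Vacuolar proteases had 2 higher, PRC1 (not called by edgeR or on leaving out replicate 2 or 3 of pbp1Δ) and ATG42 (not called by edgeR or on leaving out replicate 2 or 3 of pbp1Δ or replicate 1 or 2 of pab1Δpbp1Δ), and 2 lower, of which APE1, an aminopeptidase, had 504, 492 and 445 in pbp1Δ and 237, 226 and 257 in pab1Δpbp1Δ (-1.01 ± 0.18). Without pbp1Δ replicate 2 the list had 1 call. The cytosolic CCT chaperonin had 1 of 8 subunits called lower, at a median log2 fold change of -0.35, but 0 by edgeR, 5 at an unadjusted p below 0.05, and 3 without pab1Δpbp1Δ replicate 3. CPR6, a co-chaperone of Hsp90 in no list, had 2412, 2548 and 2262 in pbp1Δ and 3770, 5198 and 4218 in pab1Δpbp1Δ (0.87 ± 0.17, adjusted p = 2.67e-06).

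Among the 100 entries with the highest mean, 5 were called higher and 24 lower. In the most abundant decile of tested entries the shares were similar, at 9.52% higher and 26.0% lower. Cytosolic ribosomal proteins made up 32 of the 100 entries. Of the 10 entries with the highest mean, which took 14.3 to 18% of the footprints of a library, only EFT1, a gene of the elongation factor eEF2, was called, with 68500, 83090 and 81921 in pbp1Δ and 54533, 56934 and 43542 in pab1Δpbp1Δ (-0.59 ± 0.16, not called by edgeR or on leaving out replicate 2 or 3 of pbp1Δ or replicate 3 of pab1Δpbp1Δ). EFT2, which encodes the same protein, was picked after its values were seen, with 16667, 30242 and 25426 in pbp1Δ and 25517, 40388 and 38005 in pab1Δpbp1Δ (adjusted p = 0.0915), and the near-identical genes share footprints, so the change of each alone is uncertain. The others were ADH1, CDC19, ENO2, FBA1, PDC1, TDH3, TEF1, TEF2 and YEF3, with log2 fold changes from -0.07 to 0.32.

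Called entries also differed in length and abundance, which the test did not use. The median effective length, taken from the expected counts and FPKM, was 920 bases for entries called higher, 1824 for those called lower and 1449 for tested entries not called. Of the shortest decile of tested entries, 28.5% were called higher and 6.99% lower, and of decile 8 by length 5.21% were called higher and 18.1% lower. The longest decile did not continue this order, with 5.91% higher and 11.8% lower. By abundance, the share called lower went from 0.173% in the scarcest decile to 26.0% in the most abundant, whereas the share called higher stayed between 5.19 and 16.8%. The median log2 fold change went from 0.98 in the scarcest decile to -0.21 in the most abundant. Counts and so the power of the test also rise with abundance, and their part in these shares was not tested.

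Short entries were more often called higher than long ones in each tertile of abundance, by the least among scarce entries. In the most abundant tertile, 24.2% of the short tertile were called higher and 10.8% lower, against 4.19% higher and 31.1% lower in the long tertile. In the middle tertile of abundance, the shares were 26.7 and 1.95% for short entries and 2.96 and 10.1% for long ones. Among scarce entries, 13.5% of short, 8.36% of middle and 10.5% of long entries were called higher, so the order did not hold throughout. The median log2 fold change in the abundant tertile was 0.14 for short and -0.36 for long entries.

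**Figure D4:**
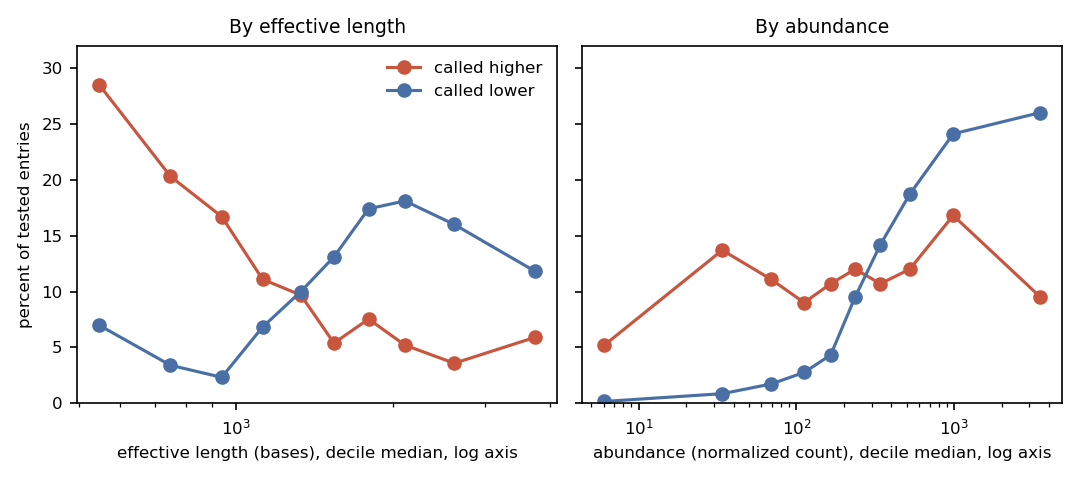
Percent of tested entries called higher (red) and called lower (blue) in pab1Δpbp1Δ (y axis) in each decile of effective length in bases (left) and of mean normalized count (right); the x axes are log scales of the median of the decile. The share called higher runs from 28.5% among the shortest to 3.59% in decile 9.

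No chromosome's median shifted by more than 0.25 in any library. The median log2 difference from the pbp1Δ mean was taken over the entries of each of 16 chromosomes, named from the systematic names. It lay between -0.10 and 0.18 in every pab1Δpbp1Δ library outside chromosome I, and the upper bound was chromosome X in replicate 3, where the other libraries had 0.01 and 0.04. Chromosome I, with 80 entries, had 0.20, 0.16 and 0.25, a mean of 0.20 that was 0.10 where the mean count reached 100. The pbp1Δ libraries ranged from -0.03 to 0.04.

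The pab1Δpbp1Δ libraries differed among themselves at some genes where pbp1Δ libraries were alike. Of 3905 entries with a mean of at least 100, 20 ranged over more than 3-fold among pab1Δpbp1Δ libraries and under 1.5-fold among pbp1Δ libraries, PAB1 included, and 2 showed the reverse. The median range was 1.35-fold and 1.26-fold. Isolate, culture and library preparation cannot be told apart here, and pab1Δpbp1Δ replicate 3 had the lowest total, at 3149040 counts. Most of the genes named next fall outside the naming rule and were chosen after their values were seen, because of this spread.

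PCL5, a cyclin that directs degradation of Gcn4, had 101, 79.0 and 74.7 in pbp1Δ and 91.5, 2186 and 2429 in pab1Δpbp1Δ, so that replicate 1 lay within the pbp1Δ range and the other isolates far above it (adjusted p = 9.60e-04, not called on leaving out replicate 2 or 3 of pbp1Δ or replicate 2 or 3 of pab1Δpbp1Δ). SPT23, a membrane-bound activator of OLE1, had 502, 512 and 515 in pbp1Δ and 549, 2322 and 1617 in pab1Δpbp1Δ (adjusted p = 0.0232), again with replicate 1 near pbp1Δ. Replicate 1 was instead the lowest for PUB1, a poly(U)-binding protein with 2395, 1855 and 1759 in pbp1Δ and 400, 1645 and 1424 in pab1Δpbp1Δ, and for SST2, which quenches pheromone signalling, with 630, 840 and 829 in pbp1Δ and 58.8, 275 and 264 in pab1Δpbp1Δ (adjusted p = 0.0108). Replicate 3 stood out for FET3, the multicopper oxidase of iron uptake, with 2423, 1808 and 1973 in pbp1Δ and 294, 271 and 1246 in pab1Δpbp1Δ, and replicate 2 for ARG1, argininosuccinate synthetase, with 525, 621 and 698 in pbp1Δ and 413, 1503 and 577 in pab1Δpbp1Δ. MEP2, an ammonium permease, had 628, 736 and 630 in pbp1Δ and 278, 1077 and 482 in pab1Δpbp1Δ, again with replicate 2 the highest. PHO5, a secreted acid phosphatase, had 613, 634 and 829 in pbp1Δ and 3111, 2408 and 936 in pab1Δpbp1Δ (1.64 ± 0.34, not called on leaving out replicate 1 of pbp1Δ or replicate 2 of pab1Δpbp1Δ). TIS11, which destabilizes mRNAs when iron is short, varied widely in both groups, with 804, 1235 and 7730 in pbp1Δ and 250, 29.0 and 38.7 in pab1Δpbp1Δ (-4.94 ± 1.27, adjusted p = 7.62e-04), not called on leaving out replicate 3 of pbp1Δ or replicate 3 of pab1Δpbp1Δ.

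**Figure D5:**
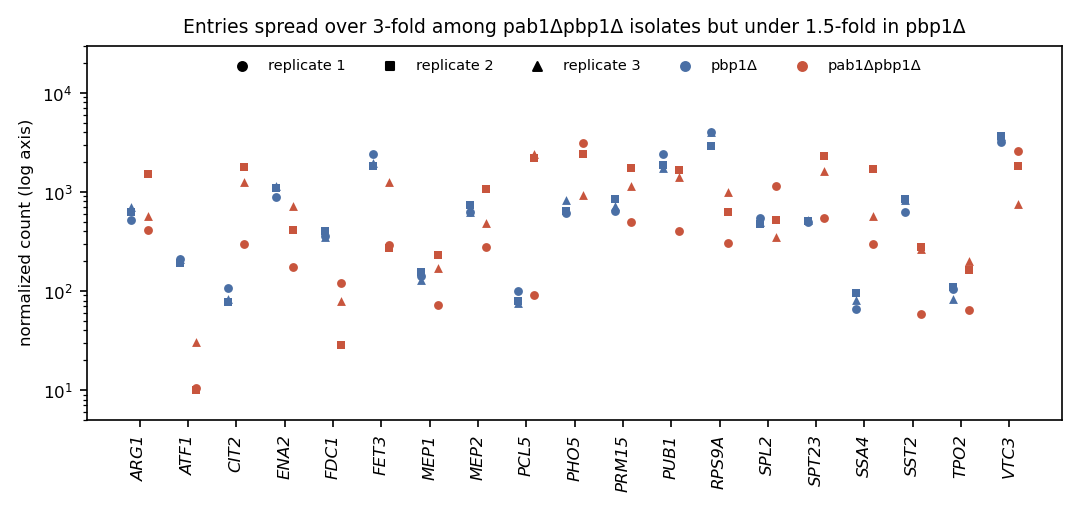
Normalized counts (y axis, log scale) of the 19 entries other than PAB1 (x axis) that ranged over more than 3-fold among pab1Δpbp1Δ libraries (red) and under 1.5-fold among pbp1Δ libraries (blue); circles, squares and triangles are replicates 1, 2 and 3, whose numbers do not pair the groups. For PCL5 the pab1Δpbp1Δ libraries have 91.5, 2186 and 2429.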

How the data were processed

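Ribosome-protected fragments were ligated to adapters with random bases and sequenced, and the authors removed adapters with cutadapt 1.9, PCR duplicates with UMI-tools, and quantified transcripts with RSEM 1.3.0 on Bowtie 1.0.0 alignments. The deposited expected counts (estimated counts per isoform and per gene, not normalized) were used, rounded to whole numbers, and the deposited FPKM values served for effective lengths and as an alternative. RSEM divides footprints shared by near-identical genes by estimation.

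Groups and replicate numbers came from the labels. The comparison of 3 against 3 libraries was fitted with DESeq2 1.42.0 (Wald test, independent filtering at 0.01, Benjamini-Hochberg adjusted p below 0.01), the setting the study's methods give, and edgeR 4.0.16 and limma 3.58.1 (R 4.3.3) were alternatives. The fit was also run on simulated data. These gave every entry the same replicate variation and so do not cover entries that vary more. List shares and paralog ratios were compared by two-sided exact permutation tests (scipy 1.17.1), whose smallest p is 0.10. Totals per library were 3149040 to 6903587 counts. Precision of a log2 fold change is given as the standard error of the DESeq2 fit, whose estimate of spread draws on other entries too. Symbols came from RefSeq locus tags, matching 6259 entries. DESeq2 p-values rest on the same estimate of spread, and all p-values refer to these isolates only.

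Named genes were those with the largest change or highest count in each list, per direction, among called and non-overlapping members with a mean of at least 100, together with paralog pairs, the 10 most abundant entries, and the 10 most abundant called entries per direction in no list; others are marked. Members, gene lists and paralog pairs were chosen with earlier results of these data known. No library was identical to another: replicate pairs differed by a chi-square of 7.34 to 43.6 per degree of freedom.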

Additional observations from a re-analysis of the deposited data

How the results depend on the processing

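No called gene named here turned its direction by edgeR, with TMM factors, the gene table or the replicate block, or on leaving out a library, but the number of calls moved. Against 1230 entries called by DESeq2 (639 higher, 591 lower), edgeR called 879, of which 856 were also called by DESeq2, limma on log2(FPKM + 1) called 771 (574 higher, 197 lower), limma on log2(FPKM + 0.1) called 651 (497 higher, 154 lower), and 599 of the DESeq2 calls had a log2 fold change of 1 or more in size. Leaving out a library gave 756 (without pbp1Δ replicate 2) to 1201 (without pbp1Δ replicate 1) calls, and 786 without pbp1Δ replicate 3. TMM factors, total counts, size factors from other than ribosomal protein genes, both filters on low counts, the gene table, spliced entries alone, all 9 libraries in one fit and a threshold of 0.05 gave 1205 to 1801. Scaling by total counts turned the sign of the medians of the lists of pyrimidine synthesis, cleavage and polyadenylation, the spliceosome, the cell wall and transcription regulators, all near 0. The cause of these differences was not tested.

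Replicate numbers did not pair the groups: deviations of same-numbered libraries correlated at 0.229, 0.15 and -0.121. With the replicate number as a block 1197 entries were called, and 7 of the 237 called genes that the naming rule picked lost the call, PHO5 and PHO84 among them, as against 76 by edgeR. HXT14 and PCL5, named outside the rule, lost it with the block too. The fits for genes outside the rule, and the count of lists under total counts, were added after seeing the data. With edgeR, the number of called members moved by over 1.5 times in 23 of 59 lists, and with the block in 3.

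With shares of summed FPKM in place of counts, 12 of 59 list shares moved by more than 1 SD between replicates, among them the pentose phosphate pathway, whose log2 difference became -0.07. Where the mean count reached 100, the chromosome medians were between -0.18 and 0.10. The planned search for promoter motifs was not run, as it needs promoter sequences not used here. Footprints divided by estimation among near-identical genes, and entries of low count, have the least certain values, and 1180 entries were not tested.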
